A study of Mus musculus with 78 samples.

Results

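Cartilage engineered from mouse induced pluripotent stem cells (iPSC) was exposed for 4 h to interleukin-1beta (IL-1beta) at 1 ng/mL or to tumour necrosis factor alpha (TNF-alpha) at 20 ng/mL, and the mRNA of these cultures was compared directly. The comparison rests on 6 libraries, 3 with IL-1beta and 3 with TNF-alpha (replicates a, b and c), out of 78 libraries in the series, of which 39 measured mRNA and 39 small RNA. The 6 were chosen by their labels, 4 h and the cytokine, in the mRNA count data. Untreated cultures taken at 4 h (3 libraries, no cytokine) give the level without cytokine, and the same 3 kinds of culture were also sampled at 12, 24 and 72 h. All groups came from tissue-engineered cartilage of iPSC-derived chondrocytes. The labels used here give no strain, clone or number of cultures, and do not say whether replicates are separate cultures, so p-values cover only the spread among these libraries, which may be technical. The doses differ between the cytokines, so a level that differs reflects these doses and not equal amounts. The tissue is bulk, so fewer cells of a type and less RNA per cell cannot be told apart.

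IL-1beta and TNF-alpha are inflammatory cytokines that drive matrix loss in arthritic cartilage. IL-1beta binds a receptor pair encoded by Il1r1 and Il1rap, which signals through the adaptor MyD88 and IRAK kinases, while TNF-alpha binds the receptors encoded by Tnfrsf1a and Tnfrsf1b, of which the first signals through TRADD and RIPK1 and both through TRAF2. Both routes release the transcription factor NF-kappaB from its IkappaB inhibitors and activate MAP kinases. In chondrocytes both cytokines are known to raise matrix-degrading proteases, nitric oxide synthase, prostaglandin synthesis and chemokines, and to lower cartilage matrix genes.

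Expression is given as CPM, the standard scaling of a gene's count by the size of its library, with library sizes adjusted by TMM, a scaling that assumes most genes equal between libraries. Levels are listed in the order a, b, c. Every difference is a log2 fold change of IL-1beta minus TNF-alpha at 4 h with its standard error (SE), so a positive value is a higher level with IL-1beta. A gene was called when the Benjamini-Hochberg adjusted p of edgeR's quasi-likelihood F test, over all 18857 tested genes, was under 0.05. The libraries held 20198456, 68655350 and 13919485 counts with IL-1beta and 15427084, 14632743 and 13631748 with TNF-alpha, and the controls at 4 h held 29215135 to 50491521. Across genes the libraries of one cytokine correlated at 0.994 or more (log2 CPM), and those of different cytokines at 0.988 to 0.993.

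Of 21 tested complement and acute-phase genes 9 were higher with IL-1beta, among them Saa3, Hp and C3, and 0 with TNF-alpha. Of 17 genes of the IL-6 family and STAT3 feedback 7 were higher with IL-1beta, among them Il6, Osmr and Socs3, and 0 with TNF-alpha, where 5.71% of all genes were called toward IL-1beta. Of 19 chemokine genes other than the neutrophil attractants 6 were higher with TNF-alpha, among them Ccl5 and Ccl2, and 0 with IL-1beta. Of 51 interferon-response genes 7 were higher with TNF-alpha, among them Irf1 and Gbp5, and 1 with IL-1beta, where 6.66% of all genes were called toward TNF-alpha. NF-kappaB feedback went both ways, with Nfkbiz higher with IL-1beta and Tnfaip3 and Nfkbie higher with TNF-alpha. Mmp3, Mmp13 and Nos2 were higher with IL-1beta, the plasminogen activator gene Plau and the macrophage growth factor gene Csf1 with TNF-alpha, and the cartilage matrix genes Col2a1 and Acan were not called. The libraries of the cytokines also stand apart in a way that cannot be told apart from the treatment at 4 h, which is described next. The counts of the gene groups less the same parting in untreated cultures were 7 toward IL-1beta and 2 toward TNF-alpha for complement and acute phase, 4 and 1 for the IL-6 family, 0 and 1 for those chemokines and 0 and 2 for interferon response. That subtraction adds the error of 6 more libraries. In the 12 h libraries, all on one side of the parting, calls in the same direction were 9 of 9 and 5 of 7 toward IL-1beta for the first 2 groups. Toward TNF-alpha they were 6 of 6 for those chemokines and 7 of 7 for interferon response.

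A set of predicted genes made of repeat-like sequence, and several structured RNA genes, part the libraries in a way the treatments do not. Gm10800 stood at 5.22, 4.29 and 1.65 CPM with IL-1beta, at 1387, 644 and 856 CPM with TNF-alpha and at 3.59, 3.64 and 3.8 CPM in the controls at 4 h. Untreated cultures at 12 h had 705 to 1284 CPM of the same gene. In all, 8 libraries (IL-1beta at 4 h and the controls at 0 and 4 h) had 0.476 to 5.22 CPM and the other 30 libraries 363 to 2068 CPM, with no overlap. Rmrp, the RNA of a mitochondrial and nucleolar RNA-processing enzyme, parted them in the same way, at 34.2, 35.2 and 37.3 CPM with IL-1beta, 145, 159.9 and 143 CPM with TNF-alpha and 130.3 to 189.5 CPM in untreated cultures at 12 h. Structured RNA genes did not part as a class. Of 9 tested ribosomal and other structured noncoding RNA genes 1, Rmrp, was higher with TNF-alpha, 2 were higher with IL-1beta and 6 were not called. The labels name no batch. In the column headers 2 index sequences each occur on a pair of libraries, one on IL-1beta 4 h replicate c and control 0 h replicate a, and the other on TNF-alpha 4 h replicate b and control 0 h replicate c.

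**Figure D1:**
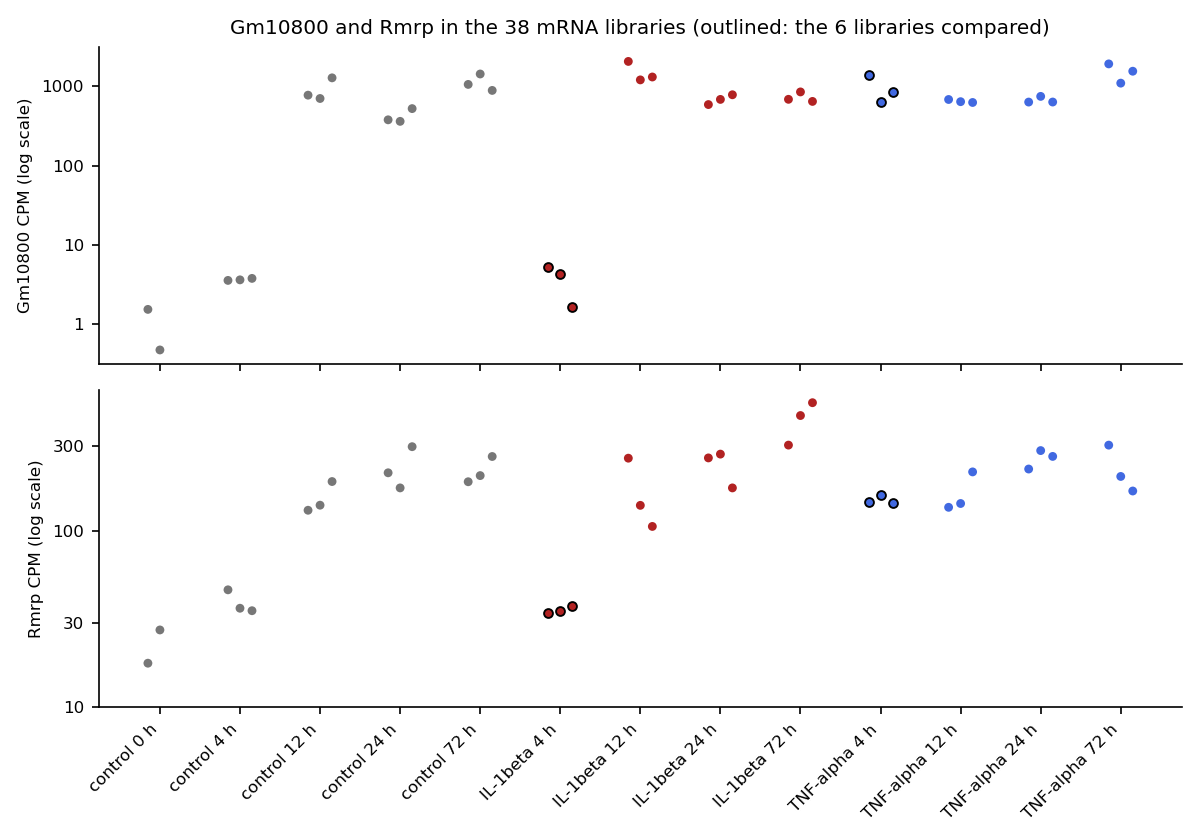
CPM of Gm10800 (upper) and Rmrp (lower), on log axes, in each of the 38 mRNA libraries by treatment and time, 1 point per library, with the 6 libraries compared outlined. For Gm10800 the libraries of IL-1beta at 4 h and of the controls at 0 and 4 h sit between 0.476 and 5.22 CPM and all others between 363 and 2068 CPM.

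At 4 h the cytokine and the side of this parting cannot be told apart, because all IL-1beta libraries lie on one side and all TNF-alpha libraries on the other. 3 sets of values bear on it and are given beside the results. The untreated cultures at 12 h and at 4 h cross the same parting without cytokine, and 139 of the 1076 genes called higher with IL-1beta and 112 of the 1256 called higher with TNF-alpha also differed in the matching direction between them, where 4.18% and 3% of all genes were called in those directions and 7.18% in either. Subtracting that untreated difference gives an untreated offset, (IL-1beta 4 h minus TNF-alpha 4 h) minus (control 4 h minus control 12 h), which also carries the change in untreated cultures from 4 to 12 h and the error of 6 more libraries. The direct comparisons of the cytokines at 12, 24 and 72 h use other libraries, all on the TNF-alpha side of the parting.

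Promoters of 5 genes from both sides of the comparison are shown because all 5 hold the kappaB core, the central letters of NF-kappaB binding sites, while their direction differed. Saa3, Il6 and Cxcl1 were higher with IL-1beta, and Cxcl3 and Csf1 with TNF-alpha. Each is the 250 bases before the start site on the gene's strand, from RefSeq on GRCm38.p6. Capitals mark GGNNTTTCC (kappaB core), GAAANNGAA (core of the interferon-stimulated element) or TGANTCA (AP-1), on either strand.
Saa3, chr7:46715677-46715926, minus strand: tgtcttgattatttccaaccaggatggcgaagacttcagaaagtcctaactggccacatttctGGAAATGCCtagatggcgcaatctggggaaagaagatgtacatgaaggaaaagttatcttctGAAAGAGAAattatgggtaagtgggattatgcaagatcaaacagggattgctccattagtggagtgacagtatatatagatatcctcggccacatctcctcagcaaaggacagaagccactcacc
Il6, chr5:30012864-30013113, plus strand: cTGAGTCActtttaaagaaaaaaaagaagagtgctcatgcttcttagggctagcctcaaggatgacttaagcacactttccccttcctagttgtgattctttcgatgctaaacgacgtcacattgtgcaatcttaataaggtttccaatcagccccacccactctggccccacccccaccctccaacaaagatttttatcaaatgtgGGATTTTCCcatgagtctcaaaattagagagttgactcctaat
Cxcl1, chr5:90890995-90891244, plus strand: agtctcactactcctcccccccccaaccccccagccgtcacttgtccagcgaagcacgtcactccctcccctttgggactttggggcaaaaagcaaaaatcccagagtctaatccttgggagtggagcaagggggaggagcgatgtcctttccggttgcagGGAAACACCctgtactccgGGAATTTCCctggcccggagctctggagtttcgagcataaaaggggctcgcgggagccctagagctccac
Cxcl3, chr5:90785851-90786100, plus strand: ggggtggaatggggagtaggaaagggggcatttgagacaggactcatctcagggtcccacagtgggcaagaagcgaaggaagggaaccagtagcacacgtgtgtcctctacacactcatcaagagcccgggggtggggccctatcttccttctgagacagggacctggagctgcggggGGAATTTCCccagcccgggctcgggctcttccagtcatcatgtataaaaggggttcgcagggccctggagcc
Csf1, chr3:107760470-107760719, minus strand: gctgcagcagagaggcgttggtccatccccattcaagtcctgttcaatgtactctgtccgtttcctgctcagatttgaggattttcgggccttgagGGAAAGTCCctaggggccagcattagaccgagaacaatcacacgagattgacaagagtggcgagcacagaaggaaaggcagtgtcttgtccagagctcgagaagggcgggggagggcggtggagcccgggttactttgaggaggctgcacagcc
In Saa3 the kappaB core lay 187 to 179 bases before the start and the interferon core 125 to 117 bases before it. In Il6 the kappaB core lay at 43 to 35 bases and the AP-1 letters at 249 to 243 bases. Cxcl1 held 2 kappaB cores, at 89 to 81 and 70 to 62 bases, and Cxcl3, a neighbour on the same chromosome, held 1 at 72 to 64 bases with the same letters as the nearer one of Cxcl1. Csf1 held 1, at 154 to 146 bases.

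Shares are of genes with a motif in any of their 300-base windows (the 250 bases before the start and 50 after), with 1 chromosome left out throughout. Of 27025 genes in the reference 6.62% held the kappaB core, 9.76% the interferon core and 8.97% the AP-1 letters. A window was matched for 11853 of the 18857 tested genes, and 7.31%, 8.54% and 6.78% of those held the 3 motifs. A gene had a mean of 1.22 windows in the reference and 1.27 among tested genes. The means were 1.33 and 1.35 among genes called higher with IL-1beta and with TNF-alpha, and more windows give more room for a motif. Among the genes called higher with IL-1beta (800 matched) the shares were 9%, 7.5% and 7.5%, and among those called higher with TNF-alpha (836 matched) 9.09%, 10% and 8.85%. Where the difference was at least 2-fold, the shares among the 89 matched genes higher with IL-1beta were 16.9%, 8.99% and 19.1%. Among the 144 matched genes higher with TNF-alpha they were 11.8%, 7.64% and 11.8%. The order of the cytokines for the interferon core was thus the other way round than among all called genes. These shares are a description and no test was made of them.

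In all, 2332 of the 18857 tested genes (12.4%) were called, 1076 (5.71%) higher with IL-1beta and 1256 (6.66%) higher with TNF-alpha. Every count of list members below is to be read against these 2 shares, and many lists hold few genes. The difference was at least 2-fold for 134 and 292 of them. The largest differences toward IL-1beta among named genes were in the acute-phase gene Saa2 and the amino acid transporter gene Slc6a14, and, apart from repeat-like genes and the low-count Cxcl11, those toward TNF-alpha in the growth factor gene Pdgfb and the TNF superfamily ligand gene Tnfsf4. In 1005 of the 1076 and 1177 of the 1256 the 3 libraries of one cytokine lay above all 3 of the other, which held for 26.2% of all tested genes. The calls were made from these same libraries, so the larger share among called genes follows largely from their selection. The median log2 fold change over all genes was -0.0029. With library totals alone in place of TMM the median of all genes moved to -0.065, and 651 of 2396 called genes (27.17%) were higher with IL-1beta instead of 46.14%. Without TNF-alpha replicate a the count fell to 1431, with 727 higher with TNF-alpha. After the untreated offset 1383 genes (7.33%) were called, 613 toward IL-1beta and 770 toward TNF-alpha, against which the offset counts of the lists are to be read. Among the genes called in the direct comparison, 411 of 1076 and 507 of 1256 were also called in the same direction after the offset, and 1003 and 1217 kept their direction. The offset contains the same direct difference from the same 6 libraries. A kept direction therefore follows largely from how the genes were selected and is not separate support.

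**Figure D2:**
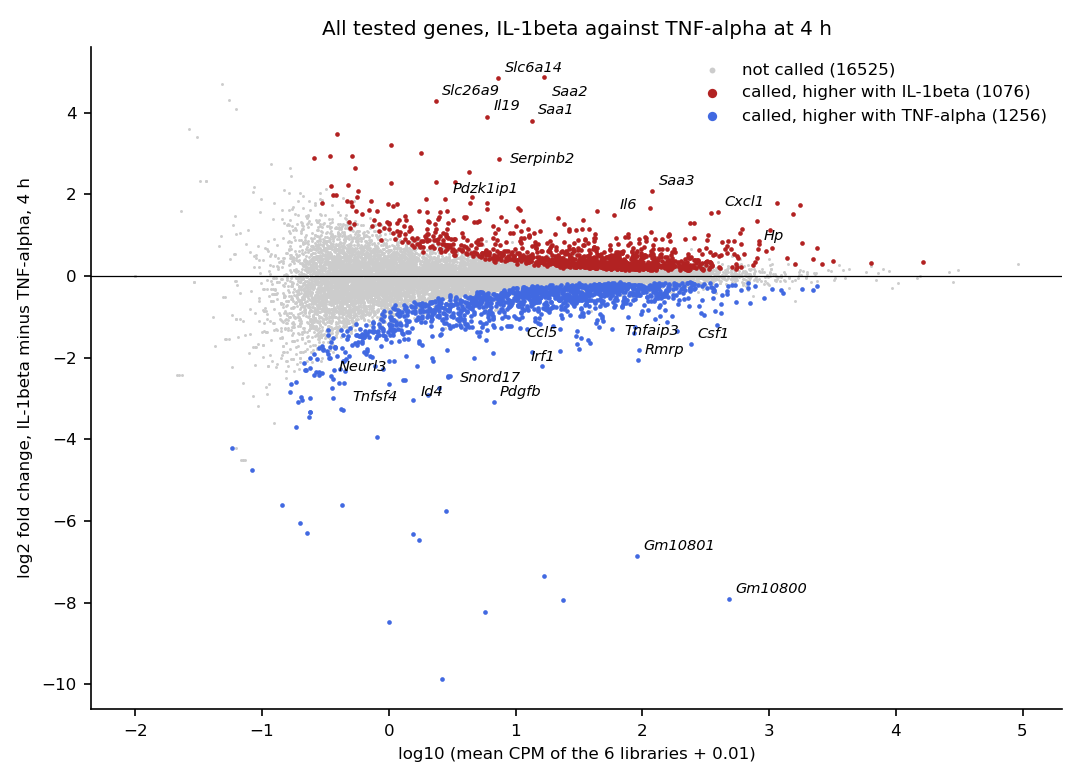
Log2 fold change of IL-1beta minus TNF-alpha at 4 h against the mean CPM of the 6 libraries (log10 of CPM plus 0.01) for every tested gene, 1 point per gene. Red points are the 1076 genes called higher with IL-1beta, blue points the 1256 called higher with TNF-alpha and grey points the rest, with Gm10800 and other repeat-like genes at the bottom of the plot.

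Among receptors, adaptors and kinases of the IL-1 route more members were higher with IL-1beta. Of 19 tested members 5 were higher with IL-1beta and 2 with TNF-alpha, with a median log2 fold change of 0.15. Il1rn encodes the secreted antagonist that blocks the IL-1 receptor, and it stood at 134, 199 and 193 CPM with IL-1beta, 52.1, 48.5 and 65.2 CPM with TNF-alpha and 24.2, 23.5 and 21 CPM in the controls (log2 fold change 1.67 ± 0.17, adjusted p = 5.94e-09). All 3 IL-1beta libraries exceeded every TNF-alpha library, and the TNF-alpha libraries exceeded the controls. TNF-alpha against the 4 h controls crosses the parting, and IL-1beta against them does not, which holds for every level set beside the controls. The receptor genes were less far apart, with Il1rap at 107, 134 and 122 CPM with IL-1beta and 60.9, 72.2 and 74 CPM with TNF-alpha (0.81 ± 0.09, adjusted p = 3.45e-08) and Il1r1 at 139, 158 and 131 CPM with IL-1beta and 84.7, 99 and 107 CPM with TNF-alpha (0.57 ± 0.09, adjusted p = 3.44e-05). Il1rl1, the receptor of the cytokine IL-33, went the other way, at 77.9, 99.4 and 69.5 CPM with IL-1beta, 189, 158 and 167 CPM with TNF-alpha and 3.5, 3.17 and 3.37 CPM in the controls (-1.05 ± 0.16, adjusted p = 1.64e-05). The remaining called members were the kinase genes Irak2 and Irak3, higher with IL-1beta, and the receptor subunit gene Il18rap, higher with TNF-alpha. After the offset 5 and 0 members were called, and at 12 h all 5 of 5 and 2 of 2 were called in the same direction as at 4 h. With the offset Il1rap stood at 0.49, still called, and Il1rl1 was no longer called, with -0.56 for Il1rl1 (adjusted p = 0.317).

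The TNF receptor route gave smaller differences in its receptors. Tnfrsf1a, the main death-domain receptor, stood at 152, 173 and 169 CPM with IL-1beta and 123, 146 and 131 CPM with TNF-alpha (0.31 ± 0.07, adjusted p = 0.00105), with levels in the controls of 158, 167 and 151 CPM. Tnfrsf1b, the second receptor, stood at 129.7, 123 and 108 CPM with IL-1beta and 90.2, 94.4 and 112 CPM with TNF-alpha (0.28 ± 0.08, adjusted p = 0.0144), the groups overlapped, and its adjusted p rose to as much as 0.107 without TNF-alpha replicate a, TNF-alpha replicate b or IL-1beta replicate a. Traf2, an adaptor of both receptors, was higher with IL-1beta (0.41 ± 0.09, adjusted p = 0.00114). Traf1, an NF-kappaB target that binds TRAF2, was higher with TNF-alpha, at 3.38, 3.01 and 2.12 CPM with IL-1beta, 8.27, 6.05 and 8.33 CPM with TNF-alpha and 0.667, 0.401 and 0.34 CPM in the controls (-1.37 ± 0.17, adjusted p = 4.09e-07). The transcript of TNF-alpha itself, Tnf, followed the same direction, at 2.47, 2.03 and 0.862 CPM with IL-1beta and 8.14, 7.38 and 7.45 CPM with TNF-alpha (-2.02 ± 0.26, adjusted p = 4.61e-07), but after the offset its value was -0.46 ± 2.02, adjusted p = 0.935. In the list of 19 tested members 3 were higher with IL-1beta and 2 with TNF-alpha, with a median log2 fold change of 0.04, and the offset called 1 and 0. Tnfrsf1a, Tnfrsf1b and Traf1 lost their calls with it, at 0.06 for Tnfrsf1a (adjusted p = 0.797), 0.18 for Tnfrsf1b (adjusted p = 0.394) and -1.02 for Traf1 (adjusted p = 0.0821).

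NF-kappaB subunits and feedback inhibitors split by gene. Of 19 tested members 8 were higher with IL-1beta and 3 with TNF-alpha, with a median log2 fold change of 0.16. Nfkbiz encodes the nuclear IkappaB-zeta, which co-activates a subset of NF-kappaB targets such as Il6 and Lcn2, and it stood at 203, 233 and 197 CPM with IL-1beta, 94.5, 116 and 114 CPM with TNF-alpha and 108, 124 and 112 CPM in the controls (0.97 ± 0.09, adjusted p = 1.55e-09). The TNF-alpha libraries lay within or close to the range of the controls, and all IL-1beta libraries lay above both. Bcl3, another nuclear IkappaB protein, was also higher with IL-1beta, at 40.3, 38.5 and 33.4 CPM with IL-1beta and 23.2, 22.9 and 26.8 CPM with TNF-alpha (0.63 ± 0.11, adjusted p = 8.30e-05). The cytoplasmic brakes showed the opposite order. Tnfaip3 encodes the deubiquitinase A20, and it stood at 35, 35.8 and 27.4 CPM with IL-1beta, 83.6, 72.6 and 88.8 CPM with TNF-alpha and 7.34, 9.8 and 7.54 CPM in the controls (-1.3 ± 0.13, adjusted p = 3.33e-09). Nfkbie, the gene of IkappaB-epsilon, stood at 17.8, 17.2 and 12.6 CPM with IL-1beta and 43.6, 39.1 and 50.9 CPM with TNF-alpha (-1.47 ± 0.16, adjusted p = 3.57e-08). Nfkbia, the gene of IkappaB-alpha, differed least, at 187, 179.6 and 168 CPM with IL-1beta and 225, 198 and 249 CPM with TNF-alpha (-0.33 ± 0.09, adjusted p = 0.00904), and its adjusted p reached 0.113 without TNF-alpha replicate c or IL-1beta replicate c. The offset called 5 and 2 members, and at 12 h 3 of 8 and 2 of 3 were called in the same direction. Its values were 1.27 for Bcl3 (adjusted p = 1.12e-06) and -0.95 for Nfkbie (adjusted p = 0.0281), both called, and -0.21 for Nfkbia (adjusted p = 0.359), not called.

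Ligands and receptors of the TNF superfamily also separated. Tnfsf15, the ligand TL1A, stood at 15.2, 17.6 and 15 CPM with IL-1beta, 4.83, 5.83 and 4.57 CPM with TNF-alpha and 1.1, 2.51 and 1.24 CPM in the controls (1.66 ± 0.21, adjusted p = 6.70e-07), and Tnfrsf9, the costimulatory receptor 4-1BB, at 6.54, 6.39 and 9.25 CPM with IL-1beta and 2.48, 2.58 and 3.52 CPM with TNF-alpha (1.33 ± 0.28, adjusted p = 0.000886). Tnfsf4, the ligand OX40L, stood at 0.344, 0.524 and 0.47 CPM with IL-1beta, 3.79, 2.8 and 4.17 CPM with TNF-alpha and 0.146, 0.182 and 0.278 CPM in the controls (-2.9 ± 0.32, adjusted p = 3.01e-08). With IL-1beta the level of Tnfsf4 stayed at 0.524 CPM or less, close to the controls, so the difference rests on the level with TNF-alpha. Eda2r, a receptor of ectodysplasin A2, was higher with TNF-alpha by a smaller amount (-0.52 ± 0.10, adjusted p = 0.000569). In this list of 22 tested members 6 were higher with IL-1beta and 4 with TNF-alpha, with a median log2 fold change of 0.18, the latter with Tnfsf11, the osteoclast factor RANKL, and Tnfrsf19 as the other 2. The offset called 4 and 2.

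Of the chemokines that attract neutrophils through the receptor Cxcr2, Cxcl1 was higher with IL-1beta and Cxcl3 and Cxcl2 with TNF-alpha. Cxcl1 stood at 593, 639.9 and 541 CPM with IL-1beta, 186, 171 and 242 CPM with TNF-alpha and 15.5, 17.4 and 17.6 CPM in the controls (1.57 ± 0.15, adjusted p = 2.49e-09). Cxcl3 stood at 6.08, 5.47 and 4.31 CPM with IL-1beta, 15, 8.04 and 14.5 CPM with TNF-alpha and 0.146, 0.0729 and 0.216 CPM in the controls (-1.22 ± 0.22, adjusted p = 0.00012). Cxcl2 stood at 30.8, 32.9 and 22.3 CPM with IL-1beta, 41.2, 36.1 and 51.6 CPM with TNF-alpha and 0.25, 0.474 and 0.371 CPM in the controls (-0.56 ± 0.17, adjusted p = 0.0213), and its adjusted p reached 0.174 without TNF-alpha replicate a, TNF-alpha replicate c or IL-1beta replicate c. The libraries of each cytokine did not overlap for Cxcl1, Cxcl3 or Cxcl2, and every cytokine library lay above the controls. Of 5 tested members these 3 were called. In the later libraries the difference for Cxcl1 was 2.34 at 12 h, 2.83 at 24 h and 2.41 at 72 h, and for Cxcl3 -1.5 at 12 h, -2.2 at 24 h and -2.78 at 72 h. The untreated offset called 1 member toward IL-1beta and 0 toward TNF-alpha, with 0.94 for Cxcl1 (adjusted p = 0.0109), -2.55 for Cxcl3 (adjusted p = 0.158) and -0.46 for Cxcl2 (adjusted p = 0.743).

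All 6 called members of the other chemokines were higher with TNF-alpha, of 19 tested (median -0.29). Ccl5, which draws lymphocytes and monocytes, stood at 17.1, 17.6 and 16.6 CPM with IL-1beta, 44, 36.5 and 50.9 CPM with TNF-alpha and 0.646, 0.364 and 0.587 CPM in the controls (-1.35 ± 0.25, adjusted p = 0.000201), and Ccl2, which attracts monocytes, stood at 450.3, 627 and 574 CPM with IL-1beta, 936, 719.9 and 972 CPM with TNF-alpha and 25.9, 21.6 and 19.5 CPM in the controls (-0.67 ± 0.17, adjusted p = 0.00615). Without IL-1beta replicate a the adjusted p for Ccl2 was 0.0659. Ccl20, the ligand of Ccr6, stood at 19.7, 31.6 and 29 CPM with IL-1beta and 62.5, 50.5 and 81.4 CPM with TNF-alpha (-1.26 ± 0.27, adjusted p = 0.00105). Cxcl10, a Cxcr3 ligand, stood at 10.3, 30.9 and 12.1 CPM with IL-1beta and 54.8, 42.4 and 71.8 CPM with TNF-alpha (-1.57 ± 0.51, adjusted p = 0.0357). For Cxcl10, IL-1beta replicate b lay closer to the lowest TNF-alpha library than to the other IL-1beta libraries, the adjusted p reached 0.143 without TNF-alpha replicate a, TNF-alpha replicate c, IL-1beta replicate a or IL-1beta replicate c, and DESeq2 gave 0.168. Cxcl11, another Cxcr3 ligand, had 0 counts with IL-1beta and 15 with TNF-alpha, at least 11.3-fold higher against a floor of 3 counts over the IL-1beta group, and its adjusted p was 0.0663 without IL-1beta replicate b. The sixth was Cxcl16. After the offset 0 and 1 members of the list were called, the 1 being Ccl2 (-1.19 ± 0.26, adjusted p = 0.00284), while Ccl20 and Cxcl10 changed sign (0.49 ± 1.17 and 0.44 ± 1.5, neither called). In the 12 h comparison 6 of these 6 were called in the same direction. The offset values of Ccl5 and Cxcl11 were -1.6 ± 0.87 for Ccl5 (adjusted p = 0.305) and -7.46 ± 3.65 for Cxcl11 (adjusted p = 0.245).

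The IL-6 family and its STAT3 feedback genes were higher with IL-1beta wherever they were called. Il6 stood at 80.2, 101 and 81.4 CPM with IL-1beta, 28.6, 29 and 36 CPM with TNF-alpha and 1.31, 2.04 and 1.42 CPM in the controls (1.5 ± 0.17, adjusted p = 4.26e-08). Osmr, the oncostatin M receptor subunit, stood at 306, 355 and 339 CPM with IL-1beta, 162, 186 and 178 CPM with TNF-alpha and 145, 153 and 147 CPM in the controls (0.93 ± 0.07, adjusted p = 2.90e-11). Socs3, a feedback inhibitor induced by STAT3, stood at 214, 240.5 and 199 CPM with IL-1beta and 94.4, 116 and 117 CPM with TNF-alpha (1.0 ± 0.11, adjusted p = 1.88e-08), and Stat3 at 487, 518 and 459.6 CPM with IL-1beta and 318, 342 and 363 CPM with TNF-alpha (0.52 ± 0.05, adjusted p = 2.22e-09). For Osmr the TNF-alpha libraries lay just above the controls and the IL-1beta libraries far above both. Of 17 tested members 7 were higher with IL-1beta and 0 with TNF-alpha (median 0.28), the other 3 being Il6st, Socs2 and Clcf1. The offset called 4 and 1, and 5 of 7 were called in the same direction at 12 h.

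Other secreted cytokines and their receptors went in both directions. Il19, a cytokine of the IL-10 family, stood at 8.66, 11.1 and 13.9 CPM with IL-1beta, 0.276, 1.18 and 0.801 CPM with TNF-alpha and 0.521, 0.984 and 0.649 CPM in the controls (3.9 ± 0.38, adjusted p = 2.42e-09). The TNF-alpha libraries of Il19 spanned the level of the controls, and the IL-1beta libraries lay far above both. Csf1, the macrophage growth factor, stood at 126, 128 and 90.4 CPM with IL-1beta, 379, 329 and 401 CPM with TNF-alpha and 25.6, 27.5 and 29.9 CPM in the controls (-1.68 ± 0.11, adjusted p = 6.63e-13). Against the 4 h controls, which both comparisons share, the log2 fold change of Csf1 was 2.06 ± 0.12 with IL-1beta and 3.74 ± 0.12 with TNF-alpha. Il15ra, the receptor chain that presents IL-15, stood at 6.08, 6.58 and 8.46 CPM with IL-1beta and 15.9, 11.9 and 15.4 CPM with TNF-alpha (-1.05 ± 0.15, adjusted p = 4.31e-06), and Il4ra, a receptor of IL-4 and IL-13, at 292, 275 and 244 CPM with IL-1beta and 165, 189 and 202 CPM with TNF-alpha (0.55 ± 0.09, adjusted p = 3.58e-05). Of 17 tested members 7 were higher with IL-1beta and 4 with TNF-alpha, with a median log2 fold change of 0.19. The TNF-alpha side was completed by Il15 and Tslp, and the offset called 2 and 3.

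Of 21 tested complement and acute-phase genes 9 were higher with IL-1beta and 0 with TNF-alpha (median 0.41). Saa3, a serum amyloid A made outside the liver, stood at 169.6, 179 and 232 CPM with IL-1beta, 44, 38.6 and 54.3 CPM with TNF-alpha and 39.1, 44.6 and 28.7 CPM in the controls (2.08 ± 0.34, adjusted p = 3.55e-05). With TNF-alpha its level lay close to the controls, and with IL-1beta all 3 libraries lay well above them. Saa2 stood at 21.6, 29.6 and 46.2 CPM with IL-1beta, 0.483, 1.33 and 1.52 CPM with TNF-alpha and 1.65, 2.62 and 2.13 CPM in the controls (4.87 ± 0.45, adjusted p = 7.70e-10) and Saa1 at 19, 19.9 and 36 CPM with IL-1beta and 1.24, 1.92 and 2.08 CPM with TNF-alpha (3.8 ± 0.43, adjusted p = 5.25e-08); these are near-identical copies, so the split of reads between them is uncertain. C3, the central complement component, stood at 833, 896 and 806 CPM with IL-1beta, 343, 376 and 417 CPM with TNF-alpha and 413, 376 and 405 CPM in the controls (1.16 ± 0.15, adjusted p = 4.22e-07). Hp, the haemoglobin-binding haptoglobin, stood at 928, 1141 and 1389 CPM with IL-1beta, 407, 518 and 444 CPM with TNF-alpha and 973, 868 and 890.0 CPM in the controls (1.34 ± 0.19, adjusted p = 4.75e-06), where the TNF-alpha libraries were the group below the controls. Against those shared controls the log2 fold change of Hp was 0.34 ± 0.19 with IL-1beta and -1.0 ± 0.19 with TNF-alpha, with adjusted p of 0.174 and 0.000185. The other called members were Lcn2, Lbp, Cp and Orm2. After the offset 7 members were called toward IL-1beta and 2 toward TNF-alpha, and all 9 of 9 were called in the same direction at 12 h and again at 24 h.

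Enzymes of prostaglandin and nitric oxide synthesis leaned to IL-1beta in part. Ptgs2, the inducible cyclooxygenase, stood at 589.7, 595 and 436 CPM with IL-1beta, 296, 275 and 345 CPM with TNF-alpha and 88.1, 132 and 114 CPM in the controls (0.83 ± 0.14, adjusted p = 9.11e-05). Pla2g4a, the phospholipase that frees arachidonic acid, stood at 97.2, 105 and 97.3 CPM with IL-1beta and 68.2, 72.5 and 73.9 CPM with TNF-alpha (0.48 ± 0.09, adjusted p = 0.000166), and Ptges2, a prostaglandin E synthase, at 57.8, 56.1 and 53.5 CPM with IL-1beta and 27.6, 29.6 and 30.7 CPM with TNF-alpha (0.93 ± 0.08, adjusted p = 8.03e-11). These 3 steps moved the same way, with no overlap between the cytokines. In the prostaglandin list of 20 tested members 4 were higher with IL-1beta and 3 with TNF-alpha, with a median log2 fold change of 0.02, and the secreted phospholipase genes Pla2g5 and Pla2g2a and the prostacyclin synthase gene Ptgis were the 3 higher with TNF-alpha. Nos2, the inducible nitric oxide synthase, stood at 847, 824 and 711 CPM with IL-1beta, 358, 351 and 435 CPM with TNF-alpha and 12, 25.4 and 14.2 CPM in the controls (1.06 ± 0.19, adjusted p = 0.000136). Slc7a2, which imports its substrate arginine, stood at 3633, 3811 and 3372 CPM with IL-1beta and 2738, 2546 and 3118 CPM with TNF-alpha (0.36 ± 0.08, adjusted p = 0.00176), and Gch1, which makes its cofactor, at 75.8, 80.9 and 71.7 CPM with IL-1beta and 52.3, 49 and 55.5 CPM with TNF-alpha (0.55 ± 0.09, adjusted p = 5.81e-05). Sod2, the mitochondrial superoxide dismutase, stood at 539, 642 and 658 CPM with IL-1beta and 329, 318 and 369.9 CPM with TNF-alpha (0.85 ± 0.09, adjusted p = 5.52e-09). Of 18 tested members of the nitric oxide list 5 were higher with IL-1beta, the fifth being Sod3, and 0 with TNF-alpha. The offset called 4 and 3 members of the prostaglandin list and 3 and 1 of the nitric oxide list, and it brought Gch1 to 0.06 ± 0.14, adjusted p = 0.856. It raised the values of Nos2 and Pla2g4a, to 1.63 for Nos2 (adjusted p = 0.000267) and 0.92 for Pla2g4a (adjusted p = 5.42e-06).

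**Figure D3:**
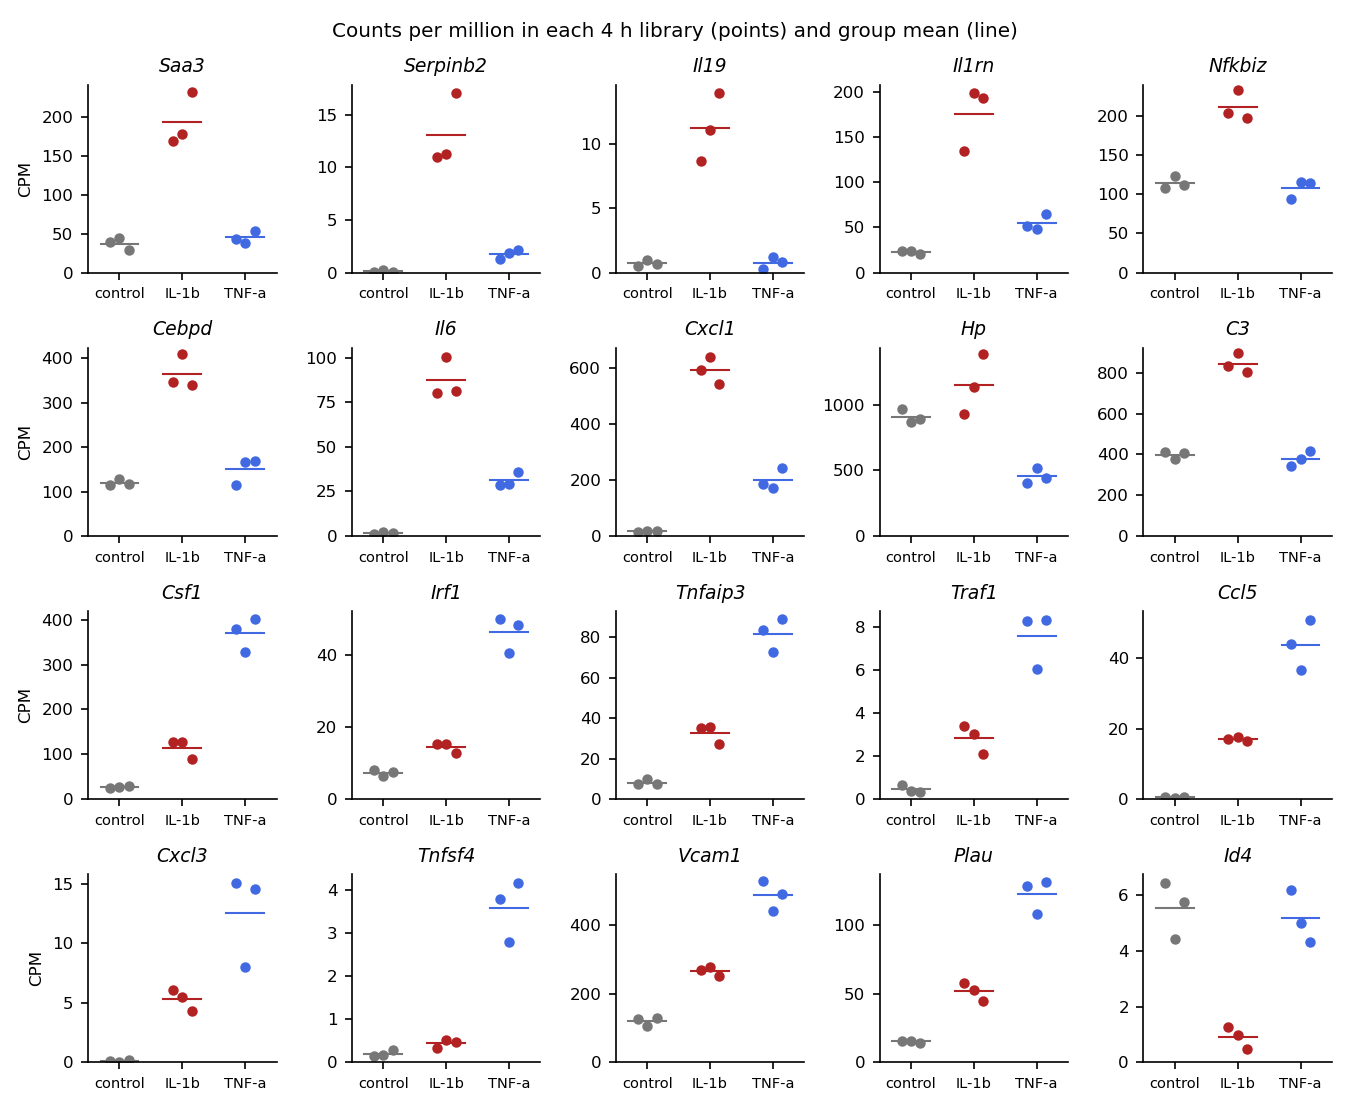
CPM in each 4 h library for 20 genes (points; line, group mean), for untreated controls, IL-1beta and TNF-alpha, each panel on its own linear axis from 0. In the upper rows the 3 IL-1beta points lie above the TNF-alpha points and in the lower rows below them, as for Il6 (80.2 to 101 against 28.6 to 36.0 CPM) and Csf1 (90.4 to 128 against 329 to 401 CPM).

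Interferon-response and antigen-presentation genes were higher with TNF-alpha in nearly all calls. Of 51 tested interferon-response genes 7 were higher with TNF-alpha and 1 with IL-1beta (median -0.28). Irf1, a transcription factor induced by interferons and NF-kappaB, stood at 15.3, 15.3 and 12.8 CPM with IL-1beta, 50.2, 40.6 and 48.6 CPM with TNF-alpha and 8.07, 6.41 and 7.54 CPM in the controls (-1.67 ± 0.16, adjusted p = 2.22e-09). Gbp5, a guanylate-binding protein, stood at 12.2, 17.7 and 11.8 CPM with IL-1beta, 53.9, 43.8 and 51.9 CPM with TNF-alpha and 1.13, 0.729 and 0.804 CPM in the controls (-1.8 ± 0.24, adjusted p = 1.42e-06), and Irf5, an interferon regulatory factor, at 2.58, 2.49 and 2.27 CPM with IL-1beta and 5.38, 6.05 and 5.85 CPM with TNF-alpha (-1.22 ± 0.20, adjusted p = 3.03e-05). In all 3 the cytokine groups were apart, and the IL-1beta libraries lay between the controls and the TNF-alpha libraries. The other 4 called toward TNF-alpha were Parp14, Trim21, Gbp2 and Ifit2, and Irf3 was the member higher with IL-1beta (0.40 ± 0.08, adjusted p = 0.000431). In MHC class I presentation the peptide transporter gene Tap1 stood at 31, 33 and 22.9 CPM with IL-1beta and 44.1, 42.4 and 47.9 CPM with TNF-alpha (-0.60 ± 0.14, adjusted p = 0.00245) and the immunoproteasome gene Psmb10 at 12.6, 15.2 and 12.5 CPM with IL-1beta and 25.7, 20.9 and 20.2 CPM with TNF-alpha (-0.71 ± 0.18, adjusted p = 0.00716), with an adjusted p of 0.0811 for Psmb10 without TNF-alpha replicate a. With Tapbpl they made 3 of 20 tested members higher with TNF-alpha, against 0 with IL-1beta. The offset called 0 and 2 interferon-response members, and 0 and 0 of the class I list. In the 12 h comparison all 7 of 7 and 3 of 3 were called in the same direction. Calls lost with the offset were those of 4 genes given here, at -1.74 for Gbp5 (adjusted p = 0.0558), 0.34 for Irf3 (adjusted p = 0.0522), -0.74 for Psmb10 (adjusted p = 0.102) and -0.22 for Tap1 (adjusted p = 0.571).

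Of leukocyte adhesion genes 3 of 13 tested were higher with TNF-alpha and 0 with IL-1beta. Vcam1 stood at 269, 278 and 252 CPM with IL-1beta, 525, 441 and 489 CPM with TNF-alpha and 126, 104 and 128 CPM in the controls (-0.86 ± 0.15, adjusted p = 7.49e-05). Sele, the gene of E-selectin, stood at 11.2, 8.29 and 8.54 CPM with IL-1beta and 20.4, 17 and 19.9 CPM with TNF-alpha (-1.04 ± 0.18, adjusted p = 8.13e-05). Icam1 stood at 651, 666 and 516 CPM with IL-1beta, 783, 655 and 819.6 CPM with TNF-alpha and 49.6, 48.9 and 49.1 CPM in the controls (-0.30 ± 0.09, adjusted p = 0.0303), where the cytokine groups overlapped and the adjusted p reached 0.248 without TNF-alpha replicate a, TNF-alpha replicate c or IL-1beta replicate c. Both cytokine groups lay far above the controls for Icam1. Pattern recognition genes divided, with 5 of 19 higher with IL-1beta and 2 with TNF-alpha. Cd14, the lipopolysaccharide co-receptor, stood at 26.2, 34.5 and 31 CPM with IL-1beta and 17.6, 16.9 and 17.7 CPM with TNF-alpha (0.82 ± 0.10, adjusted p = 2.94e-07), Casp4, an inflammatory caspase, at 46.6, 54.4 and 60.6 CPM with IL-1beta and 24.6, 31.7 and 32.9 CPM with TNF-alpha (0.86 ± 0.11, adjusted p = 3.12e-07), and Nod1, a peptidoglycan sensor, differed by 0.58 ± 0.08. Tlr2 and Tlr7 completed that side. Nlrp3, the inflammasome sensor, was higher with TNF-alpha, at 6.14, 6.52 and 3.92 CPM with IL-1beta and 22.4, 26.3 and 30.9 CPM with TNF-alpha (-2.21 ± 0.18, adjusted p = 3.98e-11), as was Gsdmd. The controls had 2 counts of Nlrp3 in all 3 libraries together, and the offset turned its value to 0.46 ± 0.69, adjusted p = 0.778. At 12 h, in libraries on the same side of the parting, the difference for Nlrp3 was -1.43 ± 0.21 (adjusted p = 8.83e-06). After the offset 0 and 1 adhesion genes and 4 and 0 pattern recognition genes were called, with -0.63 for Vcam1 (adjusted p = 0.061), -0.11 for Icam1 (adjusted p = 0.712) and -1.86 for Sele (adjusted p = 0.0286).

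Among matrix-degrading enzymes the collagenase and stromelysin genes were higher with IL-1beta and the plasminogen activators with TNF-alpha. Mmp3, the stromelysin, stood at 2981, 2942 and 2989 CPM with IL-1beta, 1740, 1537 and 2235 CPM with TNF-alpha and 342, 369 and 392 CPM in the controls (0.69 ± 0.13, adjusted p = 0.000143). Mmp13, the main cartilage collagenase, stood at 1070, 1192 and 1138 CPM with IL-1beta, 716, 674 and 842 CPM with TNF-alpha and 353, 366 and 402 CPM in the controls (0.61 ± 0.14, adjusted p = 0.00202). Adamts1, an aggrecan- and versican-cleaving protease, stood at 706, 714 and 620.1 CPM with IL-1beta and 314, 355 and 465 CPM with TNF-alpha (0.85 ± 0.12, adjusted p = 2.25e-06). The libraries of the 2 cytokines did not overlap for these 3, and all lay above the controls for Mmp3 and Mmp13. Plau, the urokinase, stood at 58, 52.6 and 44.8 CPM with IL-1beta, 129, 108 and 132 CPM with TNF-alpha and 16, 15.5 and 14.4 CPM in the controls (-1.24 ± 0.11, adjusted p = 2.81e-10), and Plat, the tissue plasminogen activator, at 10.04, 14.8 and 10.03 CPM with IL-1beta and 28.9, 24.3 and 30.9 CPM with TNF-alpha (-1.22 ± 0.21, adjusted p = 6.15e-05). Mmp16, a membrane-bound metalloproteinase, was higher with TNF-alpha by less (-0.47 ± 0.07, adjusted p = 7.47e-06). Adam8 was the fourth of that side, and Adam17, Adamts5, an aggrecanase, and Adamts7 were the other 3 higher with IL-1beta. Of 40 tested proteases 6 were higher with IL-1beta and 4 with TNF-alpha, with a median log2 fold change of -0.08. The offset called 4 and 3, and at 12 h 1 of 6 and 3 of 4 were called in the same direction. Serpinb2, an inhibitor of urokinase, stood at 10.9, 11.3 and 17 CPM with IL-1beta, 1.31, 1.84 and 2.16 CPM with TNF-alpha and 0.0834, 0.255 and 0.0927 CPM in the controls (2.87 ± 0.29, adjusted p = 6.20e-09), opposite to Plau, and Serpine2 differed by 0.29 ± 0.07. Of 17 tested inhibitors those 2 were higher with IL-1beta and Serpinf1, Serpinb9 and Timp2 with TNF-alpha. For the inhibitors the offset called 1 and 2, and its values were 3.04 for Serpinb2 (adjusted p = 0.0635) and 0.18 for Serpine2 (adjusted p = 0.329).

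Cartilage matrix genes differed little at 4 h. Of 29 tested 2 were higher with IL-1beta and 3 with TNF-alpha, shares of about the same size as those of all genes, and the median was 0.0080. Col2a1, the main collagen of cartilage, stood at 122800, 92330 and 87930 CPM with IL-1beta, 76890, 81520 and 90060 CPM with TNF-alpha and 85100, 88870 and 86070 CPM in the controls and was not called (0.29 ± 0.17, adjusted p = 0.301). Acan, the core protein of aggrecan, stood at 9149, 8141 and 7858 CPM with IL-1beta and 11260, 9846 and 10030 CPM with TNF-alpha and was not called either (-0.31 ± 0.13, adjusted p = 0.138). For Acan the 3 IL-1beta libraries lay below the 3 TNF-alpha libraries, and for Col2a1 the groups overlapped. Prg4, the lubricin of the joint surface, stood at 562, 780.3 and 954 CPM with IL-1beta, 377, 505 and 443 CPM with TNF-alpha and 697, 763 and 603 CPM in the controls (0.79 ± 0.17, adjusted p = 0.0014). Its TNF-alpha libraries lay below all 3 controls, and its difference in the later libraries was -0.0001 at 12 h, 0.40 at 24 h and -1.26 at 72 h. Frzb, a secreted WNT antagonist of articular cartilage, was higher with TNF-alpha at 167, 202 and 146 CPM with IL-1beta and 278, 261 and 220.1 CPM with TNF-alpha (-0.56 ± 0.13, adjusted p = 0.00312). Ogn, the small proteoglycan osteoglycin, stood at 34.7, 69.7 and 49 CPM with IL-1beta and 99.1, 84.9 and 75.5 CPM with TNF-alpha (-0.74 ± 0.22, adjusted p = 0.0201), with an adjusted p of up to 0.153 without TNF-alpha replicate a, IL-1beta replicate a or IL-1beta replicate c. Dcn and Omd were the other 2 called. The offset called 0 members toward IL-1beta and 3 toward TNF-alpha. Frzb and Prg4 were among those that lost the call, at -0.51 for Frzb (adjusted p = 0.0888) and 0.34 for Prg4 (adjusted p = 0.476).

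Of regulators of chondrocyte fate 6 of 31 were higher with IL-1beta and 9 with TNF-alpha (median -0.18). Sox8, a relative of the chondrocyte master factor Sox9, stood at 14.7, 12.2 and 12.3 CPM with IL-1beta, 34.1, 30.2 and 31.8 CPM with TNF-alpha and 24.5, 25 and 18.6 CPM in the controls (-1.3 ± 0.15, adjusted p = 7.68e-08). Mef2c, a driver of hypertrophy, stood at 20.9, 23.1 and 21.2 CPM with IL-1beta, 38.2, 37.8 and 32.5 CPM with TNF-alpha and 37.4, 37.8 and 38.5 CPM in the controls (-0.73 ± 0.09, adjusted p = 4.10e-07), and Fgfr3, which restrains growth-plate chondrocytes, at 205, 180.1 and 143 CPM with IL-1beta and 319, 275 and 288 CPM with TNF-alpha (-0.74 ± 0.13, adjusted p = 0.000143). For Mef2c and Fgfr3 the IL-1beta libraries were the group below the controls. Sox9 was not called, at 121, 133 and 137 CPM with IL-1beta and 151, 172 and 147 CPM with TNF-alpha (-0.27 ± 0.10, adjusted p = 0.0698). Runx1, a Runt-family factor, was higher with IL-1beta, at 362, 408 and 404 CPM with IL-1beta, 206, 276 and 249.7 CPM with TNF-alpha and 249, 272 and 273 CPM in the controls (0.68 ± 0.09, adjusted p = 4.22e-07). Col10a1 and Alpl, markers of hypertrophic chondrocytes, were also called higher with TNF-alpha. The offset called 3 and 5 of this list. Mef2c moved to -0.42 with it and was still called.

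Growth-factor pathways gave more calls toward TNF-alpha in the TGF-beta and BMP list. Of 40 tested members 5 were higher with IL-1beta and 10 with TNF-alpha, with a median log2 fold change of -0.05. Id4, an inhibitor of DNA binding induced by BMPs, stood at 1.26, 0.983 and 0.47 CPM with IL-1beta, 6.21, 5.02 and 4.33 CPM with TNF-alpha and 6.46, 4.45 and 5.75 CPM in the controls (-2.44 ± 0.30, adjusted p = 2.53e-07). Bambi, a decoy receptor of the TGF-beta family, stood at 16.1, 16.1 and 14.1 CPM with IL-1beta, 33.7, 25.8 and 30.9 CPM with TNF-alpha and 40.1, 39.3 and 35.6 CPM in the controls (-0.96 ± 0.12, adjusted p = 5.80e-07). For Id4 the TNF-alpha libraries lay with the controls and the IL-1beta libraries below both, and for Bambi both cytokines lay below the control mean of 38.3 CPM. Of receptors of this family, Acvr1 differed by 0.50 ± 0.07 and Tgfbr1 by 0.36 ± 0.07, both higher with IL-1beta. After the offset 2 and 6 members were called, Id4 at -3.04 ± 0.38, adjusted p = 1.42e-06, and Tgfbr1 fell to 0.02 ± 0.09, adjusted p = 0.946.

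In the WNT and Notch list 4 of 35 were higher with IL-1beta and 6 with TNF-alpha. The WNT receptor gene Fzd2 stood at 55.1, 53.1 and 44.7 CPM with IL-1beta, 110.2, 98 and 101 CPM with TNF-alpha and 117, 115 and 114 CPM in the controls (-1.01 ± 0.09, adjusted p = 1.59e-10), Fzd4 at 14.7, 19.4 and 17.3 CPM with IL-1beta and 31.4, 31 and 24.1 CPM with TNF-alpha (-0.73 ± 0.13, adjusted p = 0.00012) and the WNT effector Lef1 at 2.18, 2.26 and 2.19 CPM with IL-1beta and 4.28, 4.79 and 4.89 CPM with TNF-alpha (-1.06 ± 0.20, adjusted p = 0.000184). Axin2, a feedback inhibitor of the same pathway, was higher with IL-1beta (0.78 ± 0.16, adjusted p = 0.0010), so receptors and feedback gene did not go together. Notch2, Jag1 and Sfrp1 were the other 3 of that side. Among FGF, IGF, PDGF, VEGF and EGF genes 4 of 39 were higher with each cytokine. Pdgfb, a mitogen of mesenchymal cells, stood at 2.12, 1.31 and 0.784 CPM with IL-1beta, 13.9, 8.63 and 13.5 CPM with TNF-alpha and 0.0417, 0.0364 and 0.0309 CPM in the controls (-3.08 ± 0.35, adjusted p = 5.60e-08), while its relative Pdgfa went the other way, at 111, 132 and 123 CPM with IL-1beta and 75.9, 99.7 and 82.6 CPM with TNF-alpha (0.50 ± 0.10, adjusted p = 0.000744). Ereg, a ligand of the EGF receptor, stood at 395, 469.6 and 386 CPM with IL-1beta and 202, 222 and 254 CPM with TNF-alpha (0.89 ± 0.14, adjusted p = 2.05e-05), and Fgf2 differed by 0.56 ± 0.08. Areg completed the IL-1beta side, and Pdgfrb, Tgfa and Igfbp3 the TNF-alpha side. The offset left Pdgfb at -2.56 ± 1.83, adjusted p = 0.47, and its difference in the later libraries was -3.65 at 12 h, -3.13 at 24 h and -4.79 at 72 h. Ereg and Fgf2 lost their calls with the offset, at 0.28 for Ereg (adjusted p = 0.513) and 0.12 for Fgf2 (adjusted p = 0.613), and Axin2 moved to 1.26. The offset called 1 and 5 of the WNT and Notch list and 1 and 5 of the growth factor list.

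Transcription factors of the immediate-early and C/EBP families were higher with either cytokine. Of 31 tested 8 were higher with IL-1beta and 4 with TNF-alpha, with a median log2 fold change of 0.09. Cebpd, the C/EBP factor of acute-phase genes, stood at 347, 409 and 339 CPM with IL-1beta, 115, 166 and 168 CPM with TNF-alpha and 114, 128 and 117 CPM in the controls (1.28 ± 0.13, adjusted p = 5.52e-09). With TNF-alpha 1 library lay within the range of the controls and 2 above it. Batf, an AP-1 family member, stood at 5.96, 7.24 and 8.15 CPM with IL-1beta and 2.27, 1.7 and 1.6 CPM with TNF-alpha (1.92 ± 0.20, adjusted p = 7.23e-09), and Fosl2, a Fos-related factor, at 433, 428 and 375 CPM with IL-1beta and 247, 285 and 294 CPM with TNF-alpha (0.58 ± 0.08, adjusted p = 4.88e-06). Btg2, an anti-proliferative gene, was higher with TNF-alpha (-0.50 ± 0.06, adjusted p = 7.73e-07), with Egr2, Jun and Klf6 on the same side. The offset called 6 and 4. Of kinases, Map3k8, the kinase TPL2 that links NF-kappaB to ERK, stood at 46, 51.2 and 44.9 CPM with IL-1beta and 23.7, 26.9 and 31 CPM with TNF-alpha (0.81 ± 0.10, adjusted p = 1.82e-07), and Mapkapk2, the p38 target that stabilises inflammatory mRNA, differed by 0.43 ± 0.07. Of 23 tested members of that list these 2 were higher with IL-1beta and Dusp3, Dusp5 and Map2k6 with TNF-alpha. There the offset called 1 and 0, with 0.27 for Mapkapk2 (adjusted p = 0.107).

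Regulators of inflammatory mRNA decay were also called. Zc3h12a, the endonuclease Regnase-1 that degrades Il6 mRNA, stood at 57.1, 47.6 and 42.5 CPM with IL-1beta, 15.6, 19.5 and 22.2 CPM with TNF-alpha and 10.6, 13.4 and 11.4 CPM in the controls (1.37 ± 0.13, adjusted p = 2.42e-09). Arid5a, which protects Il6 mRNA, was also higher with IL-1beta (0.48 ± 0.10, adjusted p = 0.00108). Zfp36l2, an AU-rich element binding protein, was higher with TNF-alpha (-0.73 ± 0.16, adjusted p = 0.00144). Together with Zfp36l1 these made 3 of 16 tested members higher with IL-1beta and 1 with TNF-alpha. The offset called 1 and 0 members of the list, and Arid5a and Zfp36l2 lost their calls, at 0.36 for Arid5a (adjusted p = 0.132) and -0.53 for Zfp36l2 (adjusted p = 0.155).

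Metal, redox and stress genes gave most of their calls toward IL-1beta. In the NRF2 and metallothionein list of 23 tested members 7 were higher with IL-1beta and 1 with TNF-alpha, with a median log2 fold change of 0.15. Slc39a14, the zinc and iron importer ZIP14, stood at 2351, 2332 and 2311 CPM with IL-1beta, 1156, 1404 and 1453 CPM with TNF-alpha and 900.4, 994 and 900.1 CPM in the controls (0.80 ± 0.09, adjusted p = 1.15e-07). Slc39a8, the importer ZIP8, stood at 159.7, 206 and 214 CPM with IL-1beta and 108, 138 and 118 CPM with TNF-alpha (0.67 ± 0.10, adjusted p = 5.95e-06), and Mt1, a zinc-binding metallothionein, at 1064, 1403 and 1701 CPM with IL-1beta and 606, 613 and 679 CPM with TNF-alpha (1.13 ± 0.18, adjusted p = 2.32e-05). Gsr, glutathione reductase, differed by 0.85 ± 0.08 (adjusted p = 6.15e-10). In untreated cultures Mt1 and Slc39a8 were lower at 12 h than at 4 h (log2 fold changes -0.71 and -0.57), and after the offset their values were 0.43 ± 0.25, adjusted p = 0.358 and 0.10 ± 0.14, adjusted p = 0.743. Slc39a14 kept 0.76 ± 0.13, adjusted p = 0.000205. The offset called 2 and 2 of the list. Of the 26 integrated and ER stress genes 4 were higher with IL-1beta, namely Atf4 (0.32 ± 0.06), the amino acid carrier subunit Slc3a2 (0.24 ± 0.06), Ddit3 and Herpud1, and 1 with TNF-alpha, Pdia4. After the offset 3 and 0 members of that list were called. Atf4 and Slc3a2 lost their calls, at 0.20 for Atf4 (adjusted p = 0.187) and 0.21 for Slc3a2 (adjusted p = 0.124).

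Among hypoxia genes Adm, the vasodilator peptide adrenomedullin, had the largest called difference, at 9.69, 10.1 and 9.72 CPM with IL-1beta, 41, 28.4 and 36.6 CPM with TNF-alpha and 21.1, 24.2 and 21.4 CPM in the controls (-1.84 ± 0.21, adjusted p = 4.79e-08). The IL-1beta libraries of Adm lay below the controls and the TNF-alpha libraries above them. Epas1, the hypoxia factor HIF-2alpha, stood at 15.4, 17.1 and 18.2 CPM with IL-1beta and 8.76, 8.85 and 8.25 CPM with TNF-alpha (0.96 ± 0.13, adjusted p = 1.85e-06), and Vhl, which targets it for degradation, differed by 0.36 ± 0.06. The glycolysis regulator Pfkfb4 differed by 0.59 ± 0.10. In all 4 of 35 were higher with IL-1beta, with Gapdh as the fourth, and 3 with TNF-alpha, with Hk1 and Egln1. Of 25 survival and death genes 4 were higher with IL-1beta and 5 with TNF-alpha. The growth-arrest genes Gadd45b (0.76 ± 0.10) and Gadd45g (0.71 ± 0.11), with Bcl2, were among the first. The pro-apoptotic genes Bid, at 19.9, 20.6 and 18.7 CPM with IL-1beta and 31, 24.6 and 31.8 CPM with TNF-alpha (-0.55 ± 0.10, adjusted p = 9.11e-05), and Pmaip1 (-0.71 ± 0.17), with Cdkn1a and Cflar, were among the second. In sterol and fatty acid metabolism Ch25h, which makes 25-hydroxycholesterol, stood at 29.5, 37.2 and 23.9 CPM with IL-1beta and 67.8, 55 and 78 CPM with TNF-alpha (-1.11 ± 0.18, adjusted p = 3.90e-05), Abcg1, a cholesterol exporter, differed by -0.54 ± 0.09 and the fatty acid elongase Elovl6 by 0.69 ± 0.11. With Acaca and Stard4 the calls there were 2 and 3 of 25. The offset called 5 and 1 of the hypoxia list, 2 and 1 of the survival list and 1 and 2 of the sterol list. Vhl, Bid and Ch25h lost their calls, at 0.23 for Vhl (adjusted p = 0.077), -0.36 for Bid (adjusted p = 0.161) and -1.12 for Ch25h (adjusted p = 0.459).

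Clock genes need the untreated values beside them, because 8 of 19 were higher and 4 lower in untreated cultures at 12 h than at 4 h. In the direct comparison 6 of 19 were higher with IL-1beta and 1, Bhlhe41, with TNF-alpha. Nfil3, a repressor of clock output, stood at 35.4, 40.4 and 35 CPM with IL-1beta, 20.00, 20.7 and 22.9 CPM with TNF-alpha and 16.7, 19.2 and 20.1 CPM in the controls (0.81 ± 0.11, adjusted p = 2.27e-06), Npas2, a partner of Bmal1, at 17.6, 19 and 20.2 CPM with IL-1beta and 6.21, 10.8 and 10.4 CPM with TNF-alpha (1.06 ± 0.19, adjusted p = 0.000114), Nr1d1, the repressor REV-ERB-alpha, at 27.6, 31.7 and 30.7 CPM with IL-1beta and 16.2, 20.8 and 22.8 CPM with TNF-alpha (0.60 ± 0.13, adjusted p = 0.00136), and Clock differed by 0.30 ± 0.07. Npas2 lost its call after the offset (0.82 ± 0.27, adjusted p = 0.0577). Clock stood there at -0.02 and Nr1d1 at 1.35 ± 0.18, adjusted p = 2.54e-06. Lists of housekeeping genes gave few calls. Of 32 replication and mitosis genes 1 (Tyms, 0.69 ± 0.12) was higher with IL-1beta and 2 (Ccnd1 and Mcm6) with TNF-alpha. Of 51 ribosomal protein genes 2 (Rpl12 and Rpl10a) and 0 were called, and of 7 mitochondrial transcripts 0 and 0. Of 42 histone genes 0 and 2 (Hist1h1c, -0.46 ± 0.07, and Hist1h1d) were called, with a median of -0.25. Of 13 tested repeat-like genes 12 were higher with TNF-alpha at 4 h and 12 were higher in untreated cultures at 12 h than at 4 h, while 0 were called after the offset, where Gm10800 stood at 0.06 and Gm10801 at 0.12.

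**Figure D4:**
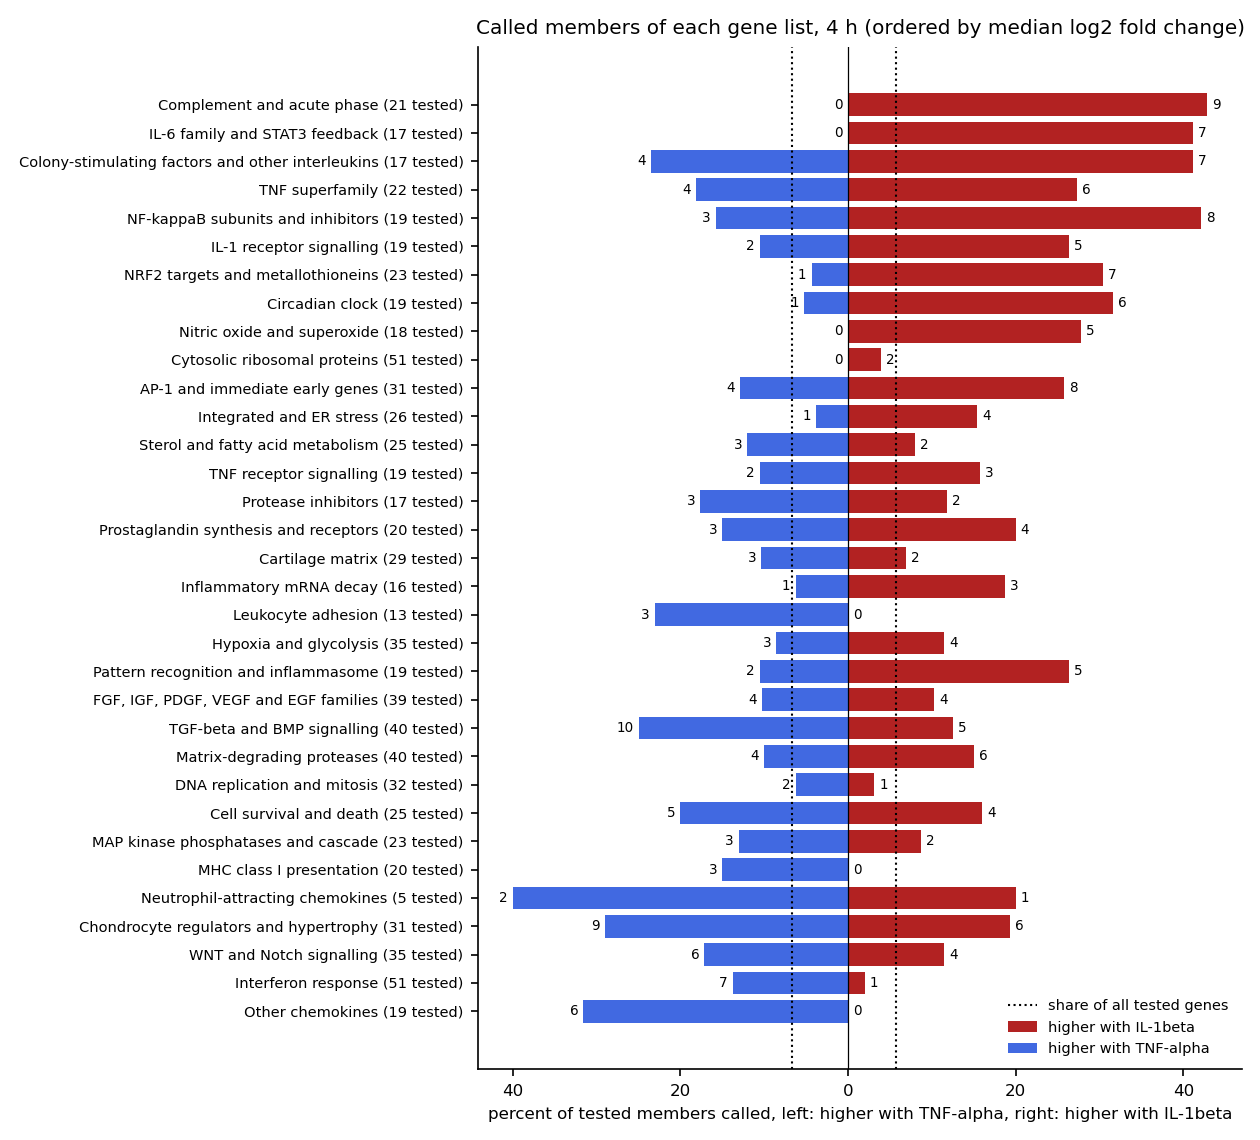
Percent of the tested members of each gene list called higher with IL-1beta (red, right) or with TNF-alpha (blue, left) at 4 h, with the number of genes at the end of each bar and the lists in order of their median log2 fold change. Dotted lines mark the shares of all tested genes (5.71% and 6.66%), with complement and acute phase (9 and 0 of 21) at the top and other chemokines (0 and 6 of 19) at the bottom.

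The 12 largest differences in each direction, among called genes with a mean of at least 1 CPM whose groups did not overlap and which have a full gene name, were as follows. Toward IL-1beta these were Saa2, Slc6a14, Slc26a9, Il19, Saa1, Vnn3, Serpinb2, Pdzk1ip1, S100a8, Tgm1, Olfm4 and Saa3. Slc6a14, a broad amino acid transporter, stood at 11.1, 16.9 and 14.5 CPM with IL-1beta, 0.758, 0.221 and 0.481 CPM with TNF-alpha and 0, 0.291 and 0.124 CPM in the controls (4.84 ± 0.37, adjusted p = 2.09e-11), and Slc26a9, an anion transporter, at 4.88, 3.93 and 4.54 CPM with IL-1beta and 0.138, 0.443 and 0.0801 CPM with TNF-alpha (4.28 ± 0.38, adjusted p = 3.98e-10). Vnn3, a pantetheinase, stood at 2.18, 3.47 and 3.84 CPM with IL-1beta, 0.345, 0.516 and 0.321 CPM with TNF-alpha and 0.709, 0.947 and 0.742 CPM in the controls (3.01 ± 0.37, adjusted p = 2.62e-07). Several of the 12 are best known from epithelium, liver or myeloid cells, and apart from Saa3 their levels with IL-1beta lay between 1.26 and 46.2 CPM. Tgm1, a transglutaminase, stood at 5.39, 6.16 and 4.94 CPM with IL-1beta and 0.69, 1.7 and 1.04 CPM with TNF-alpha (2.29 ± 0.29, adjusted p = 4.82e-07), Pdzk1ip1, a small membrane protein, differed by 2.54 ± 0.36, and the secreted glycoprotein gene Olfm4 by 2.27 ± 0.48. S100a8, a calcium-binding alarmin, stood at 3.27, 3.5 and 4.94 CPM with IL-1beta and 0.345, 0.738 and 1.28 CPM with TNF-alpha (2.3 ± 0.42, adjusted p = 0.000164), and after the offset it stood at 0.48 ± 1.03, adjusted p = 0.852. For Slc6a14 the offset value was 4.57 ± 1.45, adjusted p = 0.0463, for Tgm1 1.71 ± 0.45, adjusted p = 0.0141 and for Olfm4 2.14 ± 0.58, adjusted p = 0.0185.

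Toward TNF-alpha the 12 were Pdgfb, Tnfsf4, Rnu3a, Pitpnm3, Cd247, Snord17, Id4, Neurl3, Nlrp3, Ccrl2, Rmrp and Tnf. Of these Rnu3a, Snord17 and Rmrp are structured RNA genes that also part the untreated libraries. Rnu3a stood at 0.459, 0.753 and 0.549 CPM with IL-1beta and 3.86, 5.75 and 3.52 CPM with TNF-alpha (-2.74 ± 0.40, adjusted p = 6.38e-06) and at 0.18 after the offset, and Snord17, which lies within a host gene, differed by -2.45 ± 0.33 and stood at -0.06 after it, with Rmrp at -0.11. Pitpnm3, a phosphatidylinositol transfer protein, stood at 0.688, 0.229 and 0.392 CPM with IL-1beta, 2.55, 1.55 and 2.24 CPM with TNF-alpha and 2.08, 1.13 and 2.16 CPM in the controls (-2.55 ± 0.40, adjusted p = 1.47e-05), where the IL-1beta libraries were the group below the controls, and its offset value was -2.65 ± 0.49, adjusted p = 0.000441. Ccrl2, an atypical receptor that binds chemerin, stood at 0.631, 1.08 and 0.627 CPM with IL-1beta and 4.14, 3.17 and 3.77 CPM with TNF-alpha (-2.09 ± 0.29, adjusted p = 2.18e-06), with -2.21 ± 0.62, adjusted p = 0.0236 after the offset. Cd247, the zeta chain of the T-cell receptor complex, stood at 0.574, 1.11 and 0.784 CPM with IL-1beta and 6.69, 4.21 and 4.25 CPM with TNF-alpha (-2.48 ± 0.33, adjusted p = 1.07e-06), and Neurl3, a ubiquitin ligase, differed by -2.21 ± 0.32. After the offset Cd247 stood at -1.41 ± 0.80, adjusted p = 0.334 and Neurl3 at -1.03 ± 1.01, adjusted p = 0.643. Leukocyte markers gave no called member at 4 h, and Ptprc, which marks leukocytes, had 31 counts over the 6 libraries.

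The same genes can be followed in the direct comparisons at 12, 24 and 72 h, whose libraries do not cross the parting. Gm10800 still differed within that side. At 12 h it was called higher with IL-1beta (1.23, adjusted p = 0.000494). At 72 h it stood at 688, 853 and 648 CPM with IL-1beta and 1925, 1101 and 1556 CPM with TNF-alpha. Of the 1076 genes higher with IL-1beta at 4 h, 839 (78.0%) were above TNF-alpha at 12 h, 863 (80.2%) at 24 h and 690 (64.1%) at 72 h, against 48.7%, 50.1% and 49.4% of all tested genes. Of the 1256 higher with TNF-alpha, 950 (75.6%), 971 (77.3%) and 820 (65.3%) kept that direction. Called in the same direction were 352, 502 and 470 of the first set and 360, 592 and 591 of the second, and called in the opposite direction 21, 33 and 198, and 41, 55 and 243. Il6 moved further apart, with a difference of 3.69 at 12 h, 5.98 at 24 h and 6.34 at 72 h after 1.5 at 4 h. Hp stood at 1.22 at 12 h, 3.06 at 24 h and 4.0 at 72 h after 1.34, and Csf1, on the other side, at -1.4 at 12 h, -2.93 at 24 h and -3.63 at 72 h after -1.68. Tnfaip3 stood at -0.95 at 12 h, -0.97 at 24 h and -0.95 at 72 h after -1.3. Ptgs2 changed sign by 72 h, at 0.92 at 12 h, 0.30 at 24 h and -1.33 at 72 h after 0.83, and Acan and Col2a1, not called at 4 h, stood at -1.71 and -1.19 at 72 h. The difference itself changed from 4 to 12 h for 658 genes (3.49%), among them 151 of the 1076 and 234 of the 1256. The signed value of IL-1beta minus TNF-alpha was greater at 12 h for 344 of the 658 and smaller for 314. Greater thus includes differences toward TNF-alpha that shrank, as for Id4, and smaller includes those that grew, as for Cxcl10. Il6 was one of the 658 (change 2.2 ± 0.25, adjusted p = 5.40e-07), as was Mmp3, whose difference went to 0.02 at 12 h. A change between these times also crosses the parting, and the part of the parting in it cannot be told apart from time.

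**Figure D5:**
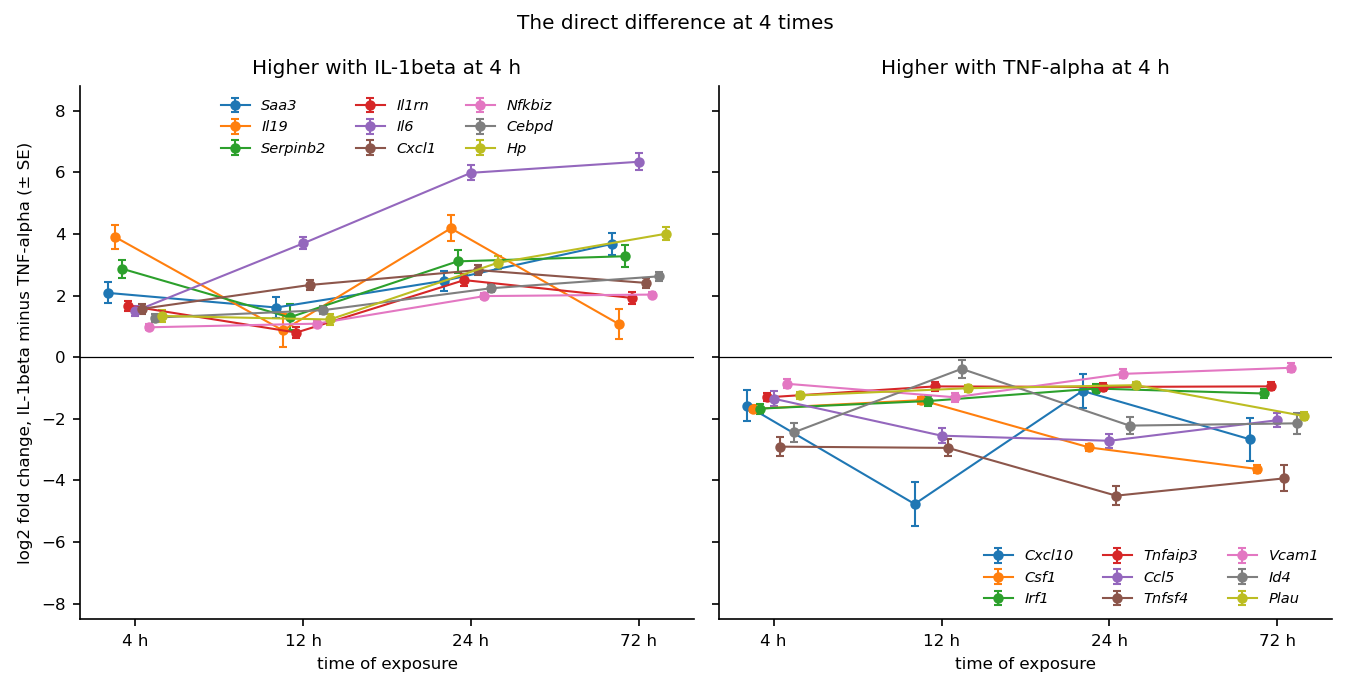
Log2 fold change of IL-1beta minus TNF-alpha (points, bars ± SE) at 4, 12, 24 and 72 h, for 9 genes higher with IL-1beta at 4 h (left) and 9 higher with TNF-alpha at 4 h (right). Il6 rises to 6.34 and Csf1 reaches -3.63 at 72 h, and all 18 keep their side of 0 at the 4 times.

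Markers of cell types were read to see what tissue the 6 libraries held. The summed level of 7 chondrocyte markers was 107900 to 146700 CPM with IL-1beta and 104000 to 114600 CPM with TNF-alpha, 0 of 7 were called, and Col2a1 was by far the largest part. Fibroblast markers, among them Col1a1, Col1a2 and Col3a1, summed to 31370 to 39600 and 31730 to 38510 CPM, with 1 of 7 called (Thy1, -0.59 ± 0.15, adjusted p = 0.00506). Leukocyte and macrophage markers summed to 31.4 to 38.97 and 27.7 to 31.6 CPM with 0 of 5 tested called, and endothelial markers to 0.721 to 1.09 and 1.03 to 1.86 CPM with 0 of 2 called. Of 6 neural markers Gfap was higher with IL-1beta, at 5.05, 3.27 and 2.98 CPM with IL-1beta and 1.17, 0.959 and 1.68 CPM with TNF-alpha (1.56 ± 0.27, adjusted p = 6.21e-05), and Tubb3 with TNF-alpha. Of 5 adipocyte markers Fabp4 was higher with IL-1beta, at 479, 539.9 and 714 CPM with IL-1beta and 349, 367 and 326 CPM with TNF-alpha (0.73 ± 0.16, adjusted p = 0.00171), and the list summed to 490.1 to 730.0 and 331 to 377 CPM. Fabp4 was also lower in untreated cultures at 12 h than at 4 h (log2 fold change -0.76) and stood at -0.02 after the offset. No pluripotency marker passed the filter, with Pou5f1 and Dppa5a at 0 counts in the 6 libraries. The part of these cell types in any difference was not tested.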

How the data were processed

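Total RNA of frozen engineered cartilage was purified with a Norgen kit and the mRNA libraries made with a Ribo-Zero Gold kit, per the labels' protocols. The authors deposited whole-number read counts per gene for 39 mRNA libraries. Trimming (Trimmomatic, cutadapt), alignment (STAR) and counting (featureCounts) tools and the build mm10 are named in the submitters' processing notes. Their versions, the strand setting and the annotation are not given in the sources used, so reads of overlapping or antisense genes may not be separable. Of 52459 named genes, 18857 passed edgeR's filterByExpr by group and held 99.91% of the counts. The column of control 0 h replicate b (220180 counts, highest correlation with another library 0.159) was left out, as were 2199 nameless lines with 15490 counts.

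The 38 libraries (11163263 to 68655350 counts) entered 1 edgeR 4.0.16 quasi-likelihood fit (limma 3.58.1, R 4.3.3, the data.table package at 1.17.8), with TMM scaling, 1 coefficient per group and no covariate, with a common biological coefficient of variation of 8.261%. A gene was called at a Benjamini-Hochberg adjusted p under 0.05, and the SE is the log2 fold change divided by the square root of F. No 2 libraries of a group were copies (chi-square per degree of freedom at least 4.94, over genes with a summed count of 20 or more). IL-1beta 4 h replicate a stood furthest from its group, at 32.7 and 23.7 against replicates b and c, which had 6.77 between them. It also had 0.184% mitochondrial counts, against 0.327% in both others. The genes, the 45 lists (1041 entries, 5 of them without a row in the count file) and the tests were chosen with earlier results of these data known, so lists are described by counts and medians without a test. Named genes are, per direction, the 12 called genes of largest difference with a mean of at least 1 CPM, groups apart and a full gene name, up to 4 members of smallest p per list, and some receptor, matrix and control genes. Other called members are named without values, and a few of the survival and death list are not reported here. In simulated data with 18642 genes, 50 were changed at each fold. The fit recovered 50%, 62%, 82% and 92% of genes changed 1.5-, 2-, 3- and 4-fold, and 7.14% of its calls were false. The simulated counts had the fitted spread, far fewer changed genes than were called in the data, and no parting between the groups. These shares therefore do not give the false share of the real calls. The alternatives were DESeq2 1.42.0, its size factors, library totals, no filter, a replicate block, other sets of libraries, each library left out in turn, the untreated offset and a 2-fold minimum. Promoters came from RefSeq (GRCm38.p6). Figures were drawn with matplotlib 3.10.9 and NumPy 2.4.6 in Python 3.11.15.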

Additional observations from a re-analysis of the deposited data

Results flagged for a closer look

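The direct difference between the cytokines was tested for a change between 4 h and 12 h, as an interaction in the same edgeR fit, and 658 genes passed at an adjusted p under 0.05. For these the size of the difference depended on the time, and since the 4 h comparison crosses the library parting and the 12 h comparison does not, time and parting cannot be told apart. Values below are the change in log2 fold change (12 h minus 4 h) of named genes that passed.

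Values for structured RNA and repeat-like genes were 9.15 for Gm10800, 8.01 for Gm10801, 2.76 for Rnu3a, 2.75 for Snord17 and 2.09 for Rmrp. All 5 were higher with TNF-alpha at 4 h and stood between 0.02 and 1.23 at 12 h. At 12 h Gm10800 (1.23, adjusted p = 0.000494) and Gm10801 (1.15, adjusted p = 0.000711) were called higher with IL-1beta, and the other 3 were not called.

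Differences toward IL-1beta that shrank were those of Il19 (-3.03), Tgm1 (-1.71), Gfap (-1.47), Adamts1 (-1.03), Elovl6 (-0.90), Mt1 (-0.89), Il1rn (-0.87), Mmp3 (-0.67), Casp4 (-0.66), Osmr (-0.37) and Stat3 (-0.36). Adamts1 and Elovl6 stood on the other side of 0 at 12 h, at -0.18 and -0.20, neither of them called there. Those that grew were Il6 (2.20), from 1.5 to 3.69, and Cxcl1 (0.77), from 1.57 to 2.34.

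On the TNF-alpha side the difference grew for Cxcl10 (-3.19), Ccl5 (-1.20) and Psmb10 (-1.10). It shrank for the BMP target Id4 (2.06), the pro-apoptotic Pmaip1 (0.97), the receptor Eda2r (0.75), Bambi (0.70), Fzd2 (0.61), Mef2c (0.55), Btg2 (0.43) and Hist1h1c (0.39). Of these Pmaip1 and Eda2r stood on the other side of 0 at 12 h, at 0.27 and 0.22, neither of them called there. Id4 stood at -0.38 at 12 h, and at -2.22 at 24 h.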

How the results depend on the processing

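Of 137 named genes called at 4 h, none changed sign when a library was left out, 128 stayed called in all 6 such fits, and 1060 of all 2332 called genes did. Leaving out 1 of the 6 libraries gave 1431 to 2078 calls at 4 h, 704 to 1077 toward IL-1beta and 727 to 1001 toward TNF-alpha, the lowest without TNF-alpha replicate a. The change from 4 to 12 h gave 381 to 896 calls when 1 of its 12 libraries was left out. The signed value of IL-1beta minus TNF-alpha was greater at 12 h for 189 to 354 of them and smaller for 192 to 542. Greater and smaller are used in this sense below. DESeq2 gave 2314 calls at 4 h and its size factors in edgeR 2321, against 2332. For the change from 4 to 12 h they gave 844 and 680, against 658. Library totals alone gave 651 genes higher with IL-1beta, against 1076, and 170 smaller at 12 h, against 314. Without a filter the change from 4 to 12 h gave 1071 calls, 707 of them smaller, against 314. With all 39 libraries 685 genes were called at 4 h (272 and 413) and 104 for the change (66 and 38), and 54 of 137 named genes lost their call. With the compared groups alone 1549 were called (670 higher with IL-1beta) and 267 for the change (155 and 112). A minimum of 2-fold left 426 (134 and 292). The untreated offset gave 1383 (613 and 770). Of the 137 named genes 88 stayed called, 41 lost the call and kept their sign, and 8 lost the call and changed sign. Those 8 stood at 0.18 for Rnu3a, 0.46 for Nlrp3, 0.49 for Ccl20, 0.44 for Cxcl10, -0.023 for Clock, -0.022 for Fabp4, 0.056 for Gm10800 and 0.12 for Gm10801. Each of these values was smaller than its SE, with an adjusted p of 0.778 or more, so none was called in the opposite direction. The offset contains the direct difference of the same cytokine libraries, so a kept sign is not separate support. It also carries the change in untreated cultures with time, and the cause of each lost call was not tested. Same-letter libraries of the cytokines correlated at -0.020, 0.008 and -0.074 in their deviations, and those of different letters at -0.060 to 0.079. These values show no pairing by letter but cannot exclude it, since the labels do not say what the letters stand for. A fit with the replicate block gave 2294 calls (1055 and 1239) and, for the change, 637 (341 and 296). Genes near 1 CPM rest on few counts, as Cxcl11 with 15 counts over the 3 TNF-alpha libraries.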
